A study of Saccharomyces cerevisiae with 7 samples.

Results

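The subject here is the heat shock response of budding yeast after treatment meant to take the transcription factor Hsf1 out of the nucleus. Nascent RNA was compared between 39 °C and 30 °C in cultures that had all received rapamycin. The compared units are genes, and 4585 of the 5732 genes in the deposited table were kept. A gene was kept when its mean over the 4 nascent RNA conditions reached the 20th percentile of such means, 14.442 normalized reads. Just inside that limit were SIR2 at 14.455 and RPF1 at 14.46, and just outside it were XPT1 at 14.439 and SPR6 at 14.423.

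All nascent RNA samples came from Saccharomyces cerevisiae strain DPY1283, whose genotype is given as Hsf1-AA, Rpb3-FLAG. AA stands for anchor-away, a method in which rapamycin binds a tagged nuclear protein to a second tagged protein that carries it to the cytoplasm. Rpb3 is a subunit of RNA polymerase II, and its FLAG tag lets the polymerase be pulled down with the RNA it is making. The 2 conditions compared were 30 °C with 1 µM rapamycin and heat shock at 39 °C with 1 µM rapamycin. The other 2, 30 °C and 39 °C without rapamycin, are shown beside them. Labels list 1 sample per condition, and 3 further samples, of Hsf1 chromatin immunoprecipitation, were not analysed here. Not given in the sources used here were the time at 39 °C, the time in rapamycin, and whether the strain is a single clone. Rapamycin was present at both temperatures, so its own effect at 30 °C and the removal of Hsf1 are part of the baseline, while any way in which rapamycin alters the heat response cannot be told apart from removal of Hsf1.

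Yeast answers heat along more than one route. Hsf1 binds heat shock elements upstream of chaperone genes, which encode proteins that refold or disaggregate other proteins. Msn2 and Msn4, a pair of zinc finger factors held in check by protein kinase A and TOR, enter the nucleus under many stresses and turn on genes for carbohydrate stores, antioxidants and membrane protection. Genes for building ribosomes are turned down in most stresses, mainly through TOR and protein kinase A signalling to repressors such as Dot6, Tod6 and Stb3 and to the activator Sfp1.

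Every value is the authors' mean normalized read count for a gene in a condition. Because the table holds means alone, the differences carry no SD, no replicate check and no test, and genes are described by a rule of size. A gene is called higher or lower when its log2 ratio, computed after adding 2.851 (0.1 of the median value) to each condition, reached 1 or -1, which is 2-fold. For genes with few reads, the added constant makes the ratio smaller than the true change. A standard error (SE) given with a ratio covers counting error only. These errors rest on the step size between low values, fitted on the assumption of 2 averaged libraries per condition. Other numbers of libraries were not tried. The best fit gave about 300392 and 205173 reads at 39 °C with rapamycin and about 497185 and 373833 at 30 °C with rapamycin. These single library sizes are uncertain, since other splits with the same sum of steps can fit. Counting error depends only on that sum. Counting error was thus 17.1% of a value at the median gene at 39 °C and 12.3% at 30 °C. The values average a culture, so fewer cells with a transcript and less RNA per cell cannot be told apart.

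With rapamycin present, nascent RNA of many genes still differed between the temperatures. How complete the removal of Hsf1 from the nucleus was is not shown by these values. At 39 °C 566 of the 4585 kept genes were at least 2-fold higher than at 30 °C, which is 12.3%, and 588 were at least 2-fold lower, which is 12.8%. At least 8-fold higher were 57 genes (1.24%), and at least 8-fold lower were 17 genes (0.371%). A further 2442 genes, 53.3% of those kept, lay within 1.5-fold. The median log2 ratio over kept genes was -0.0006, so higher and lower are in effect relative to the median gene. The 566 higher genes took 6.04% of all normalized reads at 30 °C and 22.2% at 39 °C. The 588 lower genes went from 15.6% to 4.52%. Counts given for gene lists below are to be read beside the 12.3% higher and 12.8% lower among all kept genes. The list counts cover all measured members, also those under the filter. All lists were written with earlier results of these data known, so their counts are descriptions.

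**Figure D1:**
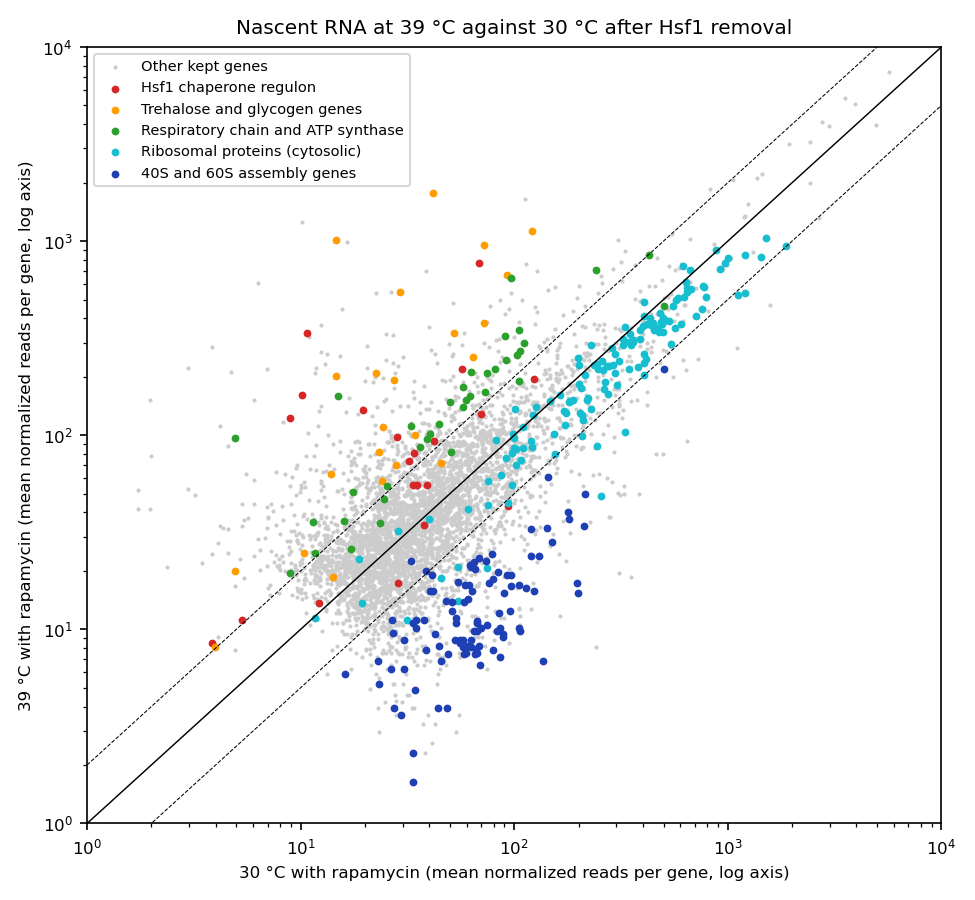
Mean normalized reads per gene at 30 °C (horizontal, log axis) and 39 °C (vertical, log axis), both with rapamycin, for kept genes and 5 coloured gene groups (members under the filter included), with the solid line at equality and dashed lines at 2-fold. Trehalose and glycogen genes lie above the upper dashed line apart from PGM1 and GLG2, and 40S and 60S assembly genes lie below the lower one apart from RIO1 and LCP5.

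The highest ratio belonged to HSP12 (YFL014W, chromosome VI, 107256 to 107585 on assembly R64), a small membrane-stabilising stress protein gene. It had 10.1 normalized reads at 30 °C and 1255 at 39 °C, both with rapamycin, giving a log2 ratio of 6.60 (counting SE 0.24.) FMP45 (YDL222C, IV, 60872 to 61801), an eisosome-associated membrane protein gene, went from 6.30 to 609, giving 6.06 on the log2 scale (counting SE 0.27). PGM2 (YMR105C, XIII, 475897 to 477606), the major phosphoglucomutase, went from 14.6 to 1013, giving 5.87 on the log2 scale (counting SE 0.21). These 3 genes encode no chaperone of the Hsf1 regulon, and their ratios without rapamycin were 6.44, 5.97 and 5.30. The gaps to the ratio with rapamycin, 0.16 for HSP12 and 0.09 for FMP45, were smaller than the counting SE of either ratio. For PGM2 the gap was 0.57, with counting SEs of 0.21 and 0.19.

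CTT1 (YGR088W, VII, 654634 to 656322), the cytosolic catalase gene, went from 16.4 to 994 with rapamycin and from 15.8 to 970 without it. Its ratios of 5.69 and 5.70 differed by 0.01. PHM7, an uncharacterised membrane protein gene, went from 3.84 to 283, a ratio of 5.42. TSL1 (YML100W, XIII, 70624 to 73920), a regulatory subunit of the trehalose synthase complex, went from 41.6 to 1780, a ratio of 5.33. CTT1 was the one member of the antioxidant list among the 20 highest genes.

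Also among the 20 highest were DCS2, a regulator of mRNA decapping (4.82), HSP42, a small heat shock protein gene and the one member of the Hsf1 regulon there (4.64), and TFS1, an inhibitor of carboxypeptidase Y and of Ras GTPase activation (4.60). RTN2, a reticulon of the endoplasmic reticulum (4.60), RGI1, a gene linked to respiratory growth (4.56), and GAD1, glutamate decarboxylase (4.42), followed. Lower in the set were OM45, an outer mitochondrial membrane protein (4.23), RTC3 (4.15), GPH1, glycogen phosphorylase (4.10), and HXK1, a hexokinase (4.08). The 4 others have only systematic names in the table. YER067C-A had a ratio of 5.27, YER066C-A of 4.50 and YFR052C-A of 4.12, and none of these 3 matched an entry of the RefSeq gene table. By their names they lie beside RGI1, also known as YER067W, and HXK1, also known as YFR053C, and reads shared with these genes cannot be told apart. YNR034W-A, which RefSeq names EGO4, went from 1.98 to 151, a ratio of 5.00.

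**Figure D2:**
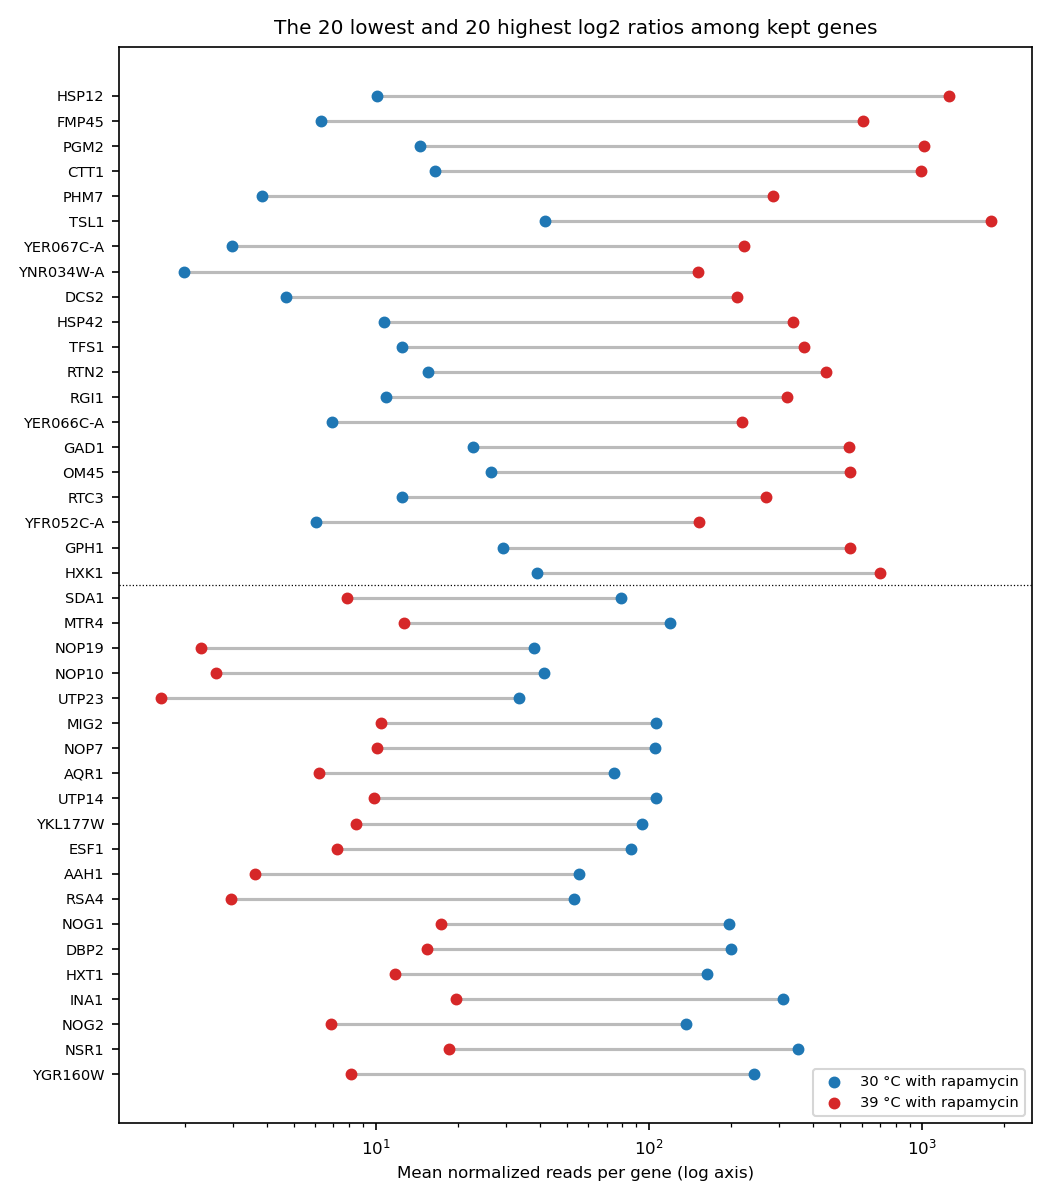
Mean normalized reads (log axis) at 30 °C (blue) and 39 °C (red), both with rapamycin, for the 20 kept genes with the lowest and the 20 with the highest log2 ratio, sorted by ratio. HSP12 at the top went from 10.1 to 1255, and YGR160W at the bottom from 242 to 8.15.

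Carbohydrate stores stood out among the higher genes. Trehalose, a sugar that stabilises proteins and membranes in stressed yeast, is made by the Tps1 and Tps2 enzymes with the Tps3 and Tsl1 subunits. Of the 10 measured trehalose genes, 9 were at least 2-fold higher and none lower, against 12.3% higher among all kept genes, and the median log2 ratio was 2.58. TPS1, the trehalose phosphate synthase, went from 121 to 1133 (ratio 3.19), and TPS2, the phosphatase of the complex, from 72.5 to 957 (ratio 3.67). Genes that break trehalose down were higher too. The neutral trehalase gene NTH1 went from 71.8 to 379 (ratio 2.35), and the acid trehalase gene ATH1 from 13.9 to 63.2 (ratio 1.98). PGM1, the minor phosphoglucomutase, was the member within 2-fold, at 0.62. The 10 genes together held 0.155% of all normalized reads at 30 °C and 1.62% at 39 °C.

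Glycogen genes followed the same pattern, with 11 of 13 measured members higher, none lower and a median of 1.69. One of the 13 was under the filter on low values. GPH1 (29.2 to 545), the glycogen synthase gene GSY1 (14.6 to 203, ratio 3.56) and the debranching enzyme gene GDB1 (22.6 to 210, ratio 3.06) led the list. GLG2 at 0.33 and PIG1 at 0.69 were within 2-fold. Nascent RNA of synthesis genes and of breakdown genes was thus higher together for both stores.

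Genes for glucose entry were divided. Of 18 measured members 8 were higher and 4 lower, with a median of 0.97. HXT1 (YHR094C, VIII, 290913 to 292625), a low-affinity transporter gene, went from 163 to 11.7, a ratio of -3.51, and HXT3, another low-affinity transporter gene, from 641 to 93.1, a ratio of -2.75. HXT5, which encodes a transporter of slow-growing cells, went the other way, from 8.89 to 123 (ratio 3.42), and the high-affinity transporter gene HXT7 had a ratio of 2.98. The glucose-phosphorylating enzyme genes HXK1 (38.8 to 703), GLK1 (112 to 1640, ratio 3.83) and EMI2 (22.2 to 200.2, ratio 3.02) were higher. STD1, a regulator of glucose sensing, was at -1.57, and PFK27, which makes fructose 2,6-bisphosphate, at -1.51.

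Lower glycolysis as a whole moved little, with 15 of 19 measured members within 2-fold and a median of 0.42. The 3 higher members were TDH1 at 2.95, PYK2 at 2.80 and GPM2 at 2.21, all minor isozymes with 7.29 to 27.7 normalized reads at 30 °C. PDC5, a minor pyruvate decarboxylase gene, was lower at -1.30. Glycerol and aldehyde genes had 15 of 21 higher and 1 lower, with a median of 1.39. They included GAD1 (22.6 to 542), the aldehyde dehydrogenase gene ALD3 (11.6 to 208, ratio 3.87), the glycerol dehydrogenase gene GCY1 (15.2 to 256, ratio 3.84) and the mitochondrial aldehyde dehydrogenase gene ALD4 (27.0 to 235, ratio 3.00). ALD5, another mitochondrial aldehyde dehydrogenase gene, was lower, with 273 normalized reads at 30 °C and a ratio of -2.13.

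The list named membrane and hydrophilin stress genes includes HSP12 and FMP45, but also other stress genes such as TFS1 and TMA17. Like the other lists, it was written with earlier results of these data known. Of its 22 measured members 20 were higher and none lower, with a median of 2.45, and 3 of the 22 were under the filter. MSC1 at 4.02, RTC3 at 4.15 and TFS1 at 4.60 were among the higher members, as were the eisosome core genes PIL1 at 1.24 and LSP1 at 1.52. MRH1, a membrane protein gene, was at -0.27, and MOH1, under the filter, at 0.72. Antioxidant genes had 18 of 29 measured members higher and none lower, with a median of 1.37, and 6 of the 29 were under the filter. After CTT1 the highest were SRX1, the sulfiredoxin gene, at 2.28, the glutathione transferase gene GTT1 at 2.10 and the glutathione peroxidase gene GPX1 at 2.08. SRX1 was under the filter and went from 1.98 to 20.6 normalized reads. The thioredoxin reductase gene TRR1 had 149.8 and 155 normalized reads, and the copper chaperone gene CCS1 had 95.1 and 88.1.

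**Figure D3:**
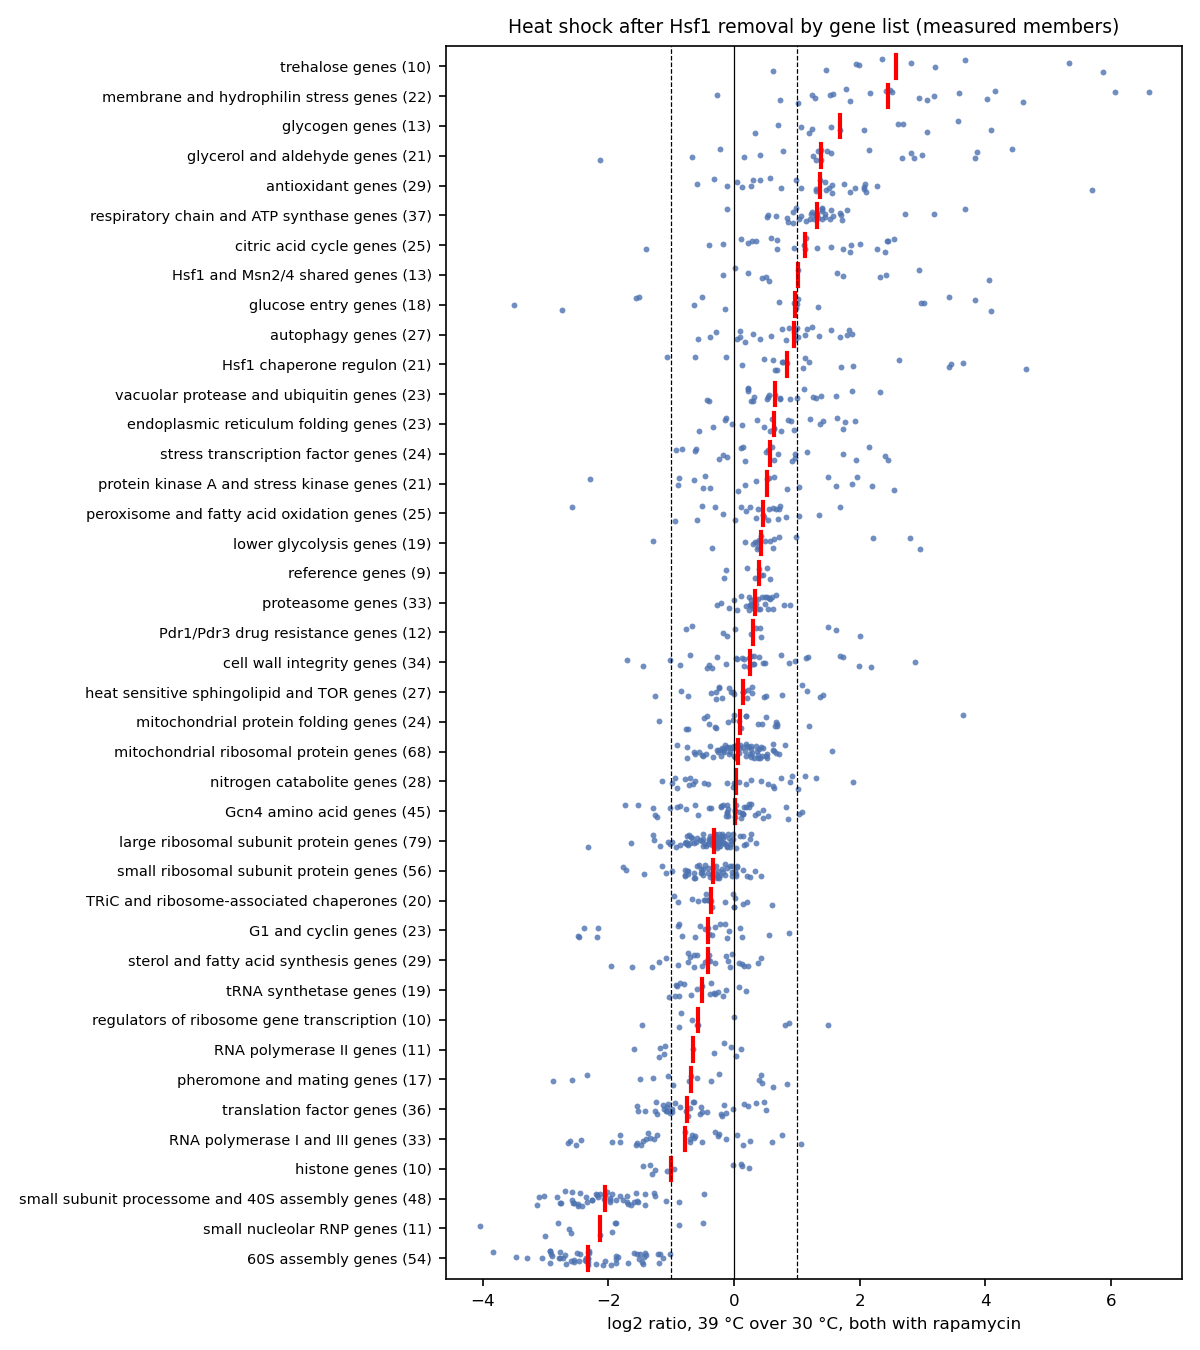
Log2 ratios of 39 °C over 30 °C, both with rapamycin (horizontal), for every measured member of 41 gene lists (vertical, number of members in brackets, points spread vertically for legibility), with each list's median as a red bar and dashed lines at 2-fold. Medians run from 2.58 for trehalose genes to -2.33 for 60S assembly genes.

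Genes of mitochondrial respiration were higher as a group. Of 37 measured nuclear genes for the respiratory chain and ATP synthase, 28 were at least 2-fold higher and none lower, with a median of 1.31. Most members sat in a narrow band, as the plot of lists shows. STF1, which encodes a factor that stabilises the inhibited ATP synthase, went from 4.95 to 97.2 (ratio 3.68), and CYC7, the minor cytochrome c isoform, from 14.9 to 159 (ratio 3.18). The internal NADH dehydrogenase gene NDI1 went from 96.1 to 646 (ratio 2.71), and the cytochrome c1 gene CYT1 from 90.7 to 323 (ratio 1.80). NDE1, the external NADH dehydrogenase gene, had 500.1 and 463 normalized reads.

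Citric acid cycle genes had 14 of 25 measured members higher and 1 lower, with a median of 1.13. The malate dehydrogenase gene MDH1 went from 76.9 to 462 (ratio 2.54), the succinate dehydrogenase gene SDH1 from 96.9 to 541 (ratio 2.45) and the citrate synthase gene CIT1 from 128 to 699 (ratio 2.43). Mitochondrial ribosomal protein genes did not share the pattern, with 1 of 68 measured members higher, none lower and a median of 0.06, which is -0.028 with columns of equal totals. That 1 gene was MRP8 at 1.56. Mitochondrial import and folding genes had 2 of 24 higher and 1 lower, with a median of 0.09, which is -0.012 with equal totals. The higher ones were the disaggregase gene HSP78 at 3.65 and the J-protein gene MDJ1 at 1.19, both also in the Hsf1 list, and the lower one was the translocase gene TIM23 at -1.20.

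Among regulators, the protein kinase A and stress kinase list had 7 of 21 members higher and 1 lower, with a median of 0.53. YAK1, a kinase that acts against protein kinase A in growth control, went from 27.4 to 174 (ratio 2.55). PDE1, a phosphodiesterase that degrades cAMP, had a ratio of 1.96. Stress transcription factor genes had 6 of 24 higher and none lower, with a median of 0.57. XBP1, a repressor of cyclin genes, was at 2.45, ADR1, an activator of genes for non-fermentable carbon, at 2.40, USV1 at 2.15 and CIN5 at 1.94. The genes of the factors named in the background moved less: MSN2 had 45.2 and 65.3 normalized reads (ratio 0.50), MSN4 57.5 and 62.1 (ratio 0.11), and HSF1 itself 60.3 and 99.98 (ratio 0.70). HSF1 RNA does not show where the Hsf1 protein was. TOR1 had 73.7 and 70.8 normalized reads, RPB3 46.0 and 40.8, and RPL13A 99.98 and 96.9, all within 2-fold, and no row was named FPR1.

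Genes of protein turnover were partly higher. Vacuolar protease and ubiquitin genes had 8 of 23 measured members higher and none lower, with a median of 0.65. They included the polyubiquitin gene UBI4 (74.2 to 384, ratio 2.33) and the vacuolar protease genes PRB1 (155 to 578, ratio 1.88) and PEP4 (74.4 to 199, ratio 1.39), and UBC8, a ubiquitin-conjugating enzyme gene under the filter, was at 1.63. All 33 proteasome genes were within 2-fold, with a median of 0.33 and a range from -0.27 for PRE9 to 0.88 for PRE5. Autophagy genes had 10 of 27 higher and none lower, with a median of 0.96, but 10 of the 27 were under the filter. Of the 17 that passed the filter, 4 were higher. The 4 highest of all 27 were under the filter, and ATG17, which encodes a scaffold of the initiating complex, went from 5.81 to 29.1 (ratio 1.88).

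Cell wall integrity genes had 7 of 34 higher and 3 lower, with a median of 0.25. For comparison, 12.3% of all kept genes were higher and 12.8% lower. PIR3, a cell wall glycoprotein gene, went from 24.4 to 197 (ratio 2.88), and SDP1, a phosphatase of the Slt2 kinase, had a ratio of 2.17. The sensor gene WSC4 was lower at -1.71, as was the phosphatase gene PTP3 at -1.46. Sphingolipid and TOR genes had 4 of 27 higher, near the share among all kept genes, and 1 lower, with a median of 0.13. The ceramidase genes YDC1 at 1.42 and YPC1 at 1.37 were on the higher side, and the hydroxylase gene SUR2 was at -1.27.

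Chaperone genes listed as the Hsf1 regulon kept a part of their heat response. Whether Msn2 and Msn4 also act on members of this list was not checked gene by gene. Of the 21 measured genes, 10 were at least 2-fold higher, 1 was lower and 10 were within 2-fold, with a median log2 ratio of 0.85. The same 21 genes had a median of 3.53 without rapamycin, where all 21 were at least 2-fold higher. As a share of all normalized reads they went from 0.215% to 0.683% with rapamycin, and from 0.711% to 7.71% without it. Gene by gene, 14 of the 21 had fewer normalized reads at 39 °C with rapamycin than at 30 °C without it, and 7 had more. SSA2 had 93.4 against 463 and HSC82 129 against 518, while HSP104 had 774 against 144 and HSP42 337 against 22.6.

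Disaggregation and small heat shock protein genes led the regulon. HSP42 (YDR171W, IV, 806621 to 807748), whose product is a small heat shock protein, went from 10.8 to 337 with rapamycin, giving 4.64 on the log2 scale (counting SE 0.24). HSP78 went from 10.1 to 160, a ratio of 3.65, and HSP104 (YLL026W, XII, 88623 to 91349), which encodes the cytosolic disaggregase, from 68.1 to 774, giving 3.45 on the log2 scale (counting SE 0.12.) Without rapamycin these 3 reached 2716, 1854 and 5932 at 39 °C. The log2 ratio of 39 °C with rapamycin over 39 °C without it was -3.001 for HSP42, -3.51 for HSP78 and -2.93 for HSP104.

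The cytosolic Hsp70 and Hsp90 genes were spread over the regulon. SSA1, an Hsp70 gene, went from 19.53 to 136 (ratio 2.63) and HSP82, the inducible Hsp90 gene, from 8.90 to 123 (ratio 3.42). SSA2 went from 42.3 to 93.4 (ratio 1.09, or 0.99 with columns of equal totals), and HSC82 from 70.2 to 129 (ratio 0.85). Reads cannot be split with certainty within the SSA1 and SSA2 pair or the HSP82 and HSC82 pair, whose copies are nearly identical. Among cochaperones, the J-protein gene SIS1 was at 1.70, the Hsp70-Hsp90 adaptor gene STI1 at 1.13, the Hsp90 activator gene AHA1 at 0.62 and the cyclophilin gene CPR6 at 0.47. The coactivator gene MBF1 was at 1.89, the mitochondrial chaperonin genes HSP60 and HSP10 at 0.65 and 0.68, and APJ1, a J-protein gene, at 0.13.

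The sequestrase genes BTN2 and CUR1, whose products gather misfolded proteins, had few reads. BTN2 went from 3.83 to 8.51 (ratio 0.77, counting SE 0.43) and CUR1 from 5.32 to 11.1 (ratio 0.77, counting SE 0.41). BTN2 had 1637 normalized reads at 39 °C without rapamycin. YDJ1, the main cytosolic J-protein gene, was on the lower side, from 93.2 to 42.9 with rapamycin (ratio -1.07), and FES1, an Hsp70 nucleotide exchange factor gene, went from 28.4 to 17.4 (ratio -0.63). HCH1, a further Hsp90 cochaperone gene, was at -0.13. Members of one regulon thus spread from -1.07 to 4.64.

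**Figure D4:**
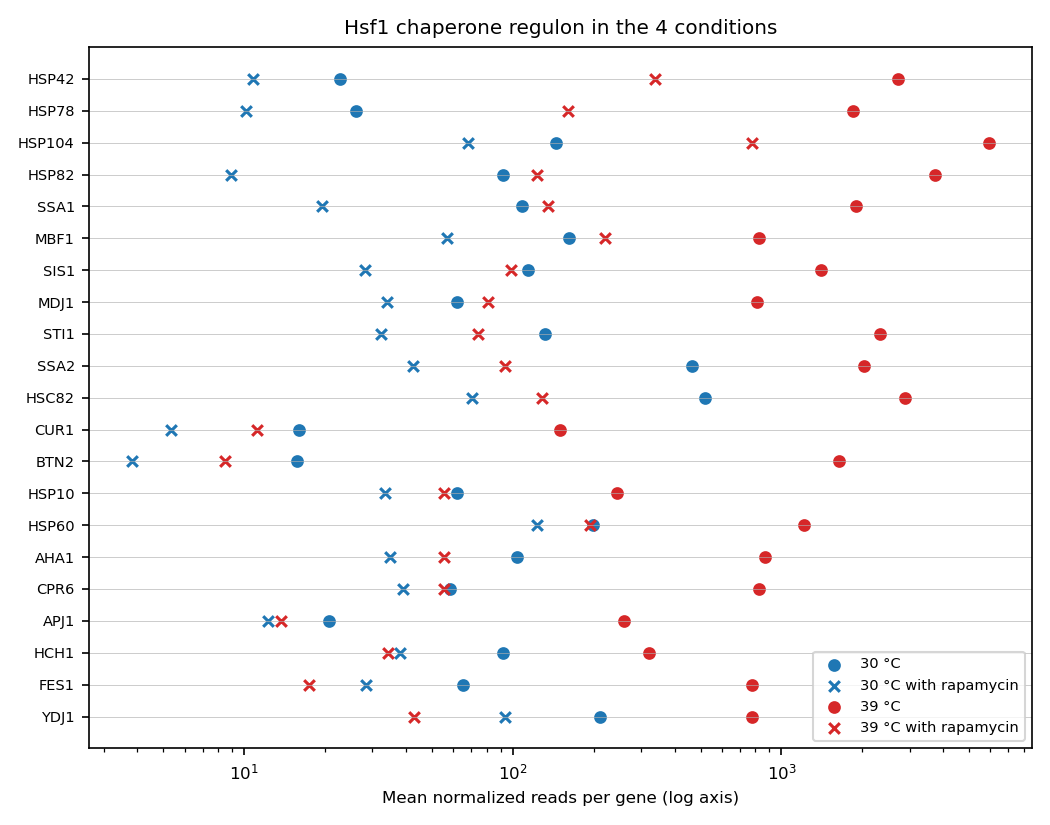
Mean normalized reads (log axis) of the 21 Hsf1 chaperone regulon genes at 30 °C (blue) and 39 °C (red), without (circles) and with rapamycin (crosses), sorted by the ratio with rapamycin. The red cross lies to the left of the red circle for every gene, and to the left of the blue cross for YDJ1, FES1 and HCH1.

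Genes placed under both Hsf1 and Msn2/4, a label that was not checked gene by gene, had 7 of 13 measured members higher and none lower. Their median was 1.02, and it was 3.12 without rapamycin. HSP26 (YBR072W, II, 382030 to 382674), which encodes another small heat shock protein, went from 1.98 to 77.7 (ratio 4.06, counting SE 0.31), and SSE2, an Hsp110 gene, from 10.9 to 102 (ratio 2.94). HSP30, a plasma membrane stress gene, was at 2.41, UBI4 at 2.33, the endoplasmic reticulum Hsp70 gene KAR2 at 1.73 and the oxidase gene ERO1 at 1.63. SSA4, a stress-inducible Hsp70 gene, had 25.2 and 54.1 normalized reads with rapamycin (ratio 1.02, or 0.93 with equal totals), against 28.5 and 3610 without it. SSA3, a related Hsp70 gene, was at 0.50, CPR1, cyclophilin A, at 0.56, the mitochondrial Hsp70 gene SSC1 at 0.44, the proteasome regulator gene RPN4 at 0.21, PDR3 at 0.02 and SSE1 at -0.18. The PDR3 value is -0.08 with columns of equal totals.

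Other folding systems moved less. For folding in the endoplasmic reticulum, 7 of 23 measured genes were higher, none was lower, and the median was 0.64. Besides KAR2 and ERO1 they were led by the disulfide isomerase gene MPD1 (17.2 to 73.2, ratio 1.93) and SIL1, an exchange factor of Kar2 (26.6 to 97.1, ratio 1.76). No gene of the TRiC and ribosome-associated chaperone list passed 2-fold, with 20 members measured and a median of -0.37. SSB1, a ribosome-bound Hsp70 gene, had the largest read count there and went from 809 to 435 (ratio -0.89).

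At the lower end of the response stood the genes that build ribosomes. All 54 measured 60S assembly genes were at least 2-fold lower, 1 of them under the filter, their median being -2.33 on the log2 scale, or 5.02-fold. Of 48 small subunit processome and 40S assembly genes 46 were lower, with a median of -2.06, and of 11 small nucleolar RNP genes 9 were lower, with a median of -2.13. Among all kept genes 12.8% were lower. The 60S list went from 1.24% to 0.237% of all normalized reads, and the 40S list from 0.908% to 0.178%.

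NSR1 (YGR159C, VII, 806412 to 807656), a nucleolin-like gene, went from 353 to 18.6, giving -4.05 on the log2 scale (counting SE 0.27). YGR160W, the lowest of all kept genes at -4.48 (242 to 8.15), is a dubious reading frame next to NSR1 by name and matched no RefSeq entry, so reads of the pair cannot be told apart. NOG2 (YNR053C, XIV, 721120 to 723112), a GTPase gene of 60S assembly, went from 136 to 6.88 (ratio -3.84), the RNA helicase gene DBP2 from 199 to 15.4 (ratio -3.47) and the GTPase gene NOG1 from 196 to 17.3 (ratio -3.30). NOG2 and DBP2 hold a small nucleolar RNA and a long intron respectively, and the table gives 1 value for the whole gene.

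The small subunit list was led by ESF1 (85.8 to 7.23, ratio -3.14), UTP14 (106 to 9.83, ratio -3.10) and UTP23 (33.5 to 1.63, ratio -3.02). UTP23 stood at the lowest value of the 39 °C column. NOP10, of the H/ACA particle that guides pseudouridylation, went from 41.3 to 2.60 (ratio -3.02), and NOP58, of the box C/D particle that guides methylation, from 174 to 22.6 (ratio -2.80). The exceptions were the kinase gene RIO1 at -0.49 and LCP5 at -0.87 in the 40S list, and SNU13 at -0.49 and SRP40 at -0.88 in the small nucleolar list. Snu13 also serves in the spliceosome. RSA4 (-3.27), NOP7 (-3.06), NOP19 (-2.99), SDA1 (-2.94) and the exosome helicase gene MTR4 (-2.97) completed the ribosome-related genes among the 20 lowest.

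RNA polymerase I and III genes had 16 of 33 measured members lower and 1 higher, with a median of -0.78. RNA polymerase I subunits were lowest, with RPA190 at -2.64 (326 to 49.8), RPA49 at -2.62, RPA135 at -2.51 and RPA34 at -2.43. TFC3, a subunit of the polymerase III factor TFIIIC, was at 1.06, and MAF1, the repressor of polymerase III, at 0.76. RNA polymerase II genes had 5 of 11 lower, with a median of -0.65, led by RPO26 (63.1 to 18.95), a subunit shared by all 3 nuclear polymerases. RPB8 and RPB10, also shared subunits, were at -1.18 and -1.12, and the polymerase II subunit gene RPB9 at -1.19. The large subunit gene RPO21 was at -0.32.

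Ribosomal protein genes, by contrast with assembly genes, were mostly within 2-fold. Of 79 large subunit genes 7 were lower and none higher, at a median of -0.33, and of 56 small subunit genes 5 were lower and none higher, at a median of -0.34. These shares are near or below the 12.8% of all kept genes. RPL9B (254 to 48.3, ratio -2.33), RPL8A (330 to 104, ratio -1.64), RPS27A (54.5 to 14.1, ratio -1.76) and RPS9A (74.5 to 20.6, ratio -1.72) were lowest. At the other end RPL37A was at 0.34 (229.9 to 293) and RPS25A at 0.42 (101.2 to 137). Many of these genes exist as near-identical pairs, so that single copies are uncertain.

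Translation factor genes had 13 of 36 lower and none higher, at a median of -0.75, led by the eIF4G gene TIF4631 at -1.55 and the eIF3 subunit gene NIP1 at -1.53. Cytosolic tRNA synthetase genes had 1 of 19 lower, the lysyl gene KRS1 at -1.03, with a median of -0.51. Regulators of ribosome gene transcription had 1 of 10 higher and 1 lower. STB3, a repressor that acts at ribosome biogenesis promoters, went from 19.7 to 60.9, DOT6, another repressor, from 94.6 to 176 (ratio 0.87), and IFH1, a coactivator of ribosomal protein genes, from 67.7 to 22.6 (ratio -1.47).

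Among 23 measured G1 and cyclin genes 5 were lower, beside 12.8% of all kept genes, and none was higher, at a median of -0.41. The G1 cyclin gene CLN2 went from 68.1 to 9.78 (ratio -2.49), the mitotic cyclin gene CLB1 from 61.4 to 8.81 (ratio -2.46) and PCL1, a cyclin of the Pho85 kinase, from 73.7 to 11.7 (ratio -2.39). FAR1, a cyclin kinase inhibitor gene, was at -2.18. Pheromone and mating genes had 6 of 17 lower, with a median of -0.69. The alpha-factor gene MF(ALPHA)1 went from 384 to 49.5 (ratio -2.89), and STE3, the receptor of alpha cells, from 161 to 24.5 (ratio -2.58). STE2, the receptor of a cells, had 2.85 and 5.91 normalized reads, so that the pattern is that of alpha cells.

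Histone genes had 5 of 10 lower, with a median of -1.01. The H2A genes HTA1 and HTA2 were at -1.34 and -1.46 and the H3 gene HHT1 at -1.26, while HHT2, the other H3 gene, was at 0.12 (316 to 345) and HHF2, an H4 gene, at 0.24 (216 to 256). Reads shared between histone gene copies may have been counted for either copy. Sterol and fatty acid synthesis genes had 5 of 29 lower, beside 12.8% of all kept genes, and none higher, at a median of -0.42. They were led by the desaturase gene OLE1, from 1106 to 283 (ratio -1.96), and the sterol desaturase gene ERG3, from 200.6 to 63.4 (ratio -1.62).

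Lists for other metabolism had medians between 0.009 and 0.46. Several of their counts are near the 12.3% higher and 12.8% lower among all kept genes. Gcn4 amino acid genes had 2 of 45 higher and 6 lower, with a median of 0.009, and -0.095 with equal totals. The branched-chain enzyme genes ILV5 (1571 to 467, ratio -1.74) and ILV3 (724 to 248, ratio -1.54) were the lowest of them. Nitrogen catabolite genes had 4 of 28 higher and 1 lower, with a median of 0.04, and -0.061 with equal totals. TOR inhibition raises such genes in cells with an intact TOR pathway, but rapamycin was present at both temperatures. The ratio thus does not show the effect of rapamycin itself on them. The proline oxidase gene PUT1 was at 1.89 and the repressor gene GZF3 at -1.14. Peroxisome and fatty acid oxidation genes had 3 of 25 higher and 1 lower, a median of 0.46, with the acyl-CoA synthetase genes FAA4 at -2.58 (495 to 80.2) and FAA1 at 1.35 (197 to 508) on opposite sides. Drug resistance genes under Pdr1 and Pdr3 had 3 of 12 higher, with a median of 0.31, led by the transporter genes YOR1 (46.1 to 193) and PDR15 (ratio 1.62).

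Reference genes, including ACT1 (607 to 762, ratio 0.33), had no member of 9 past 2-fold and a median of 0.40. Outside the lists, the lowest genes were INA1 (YLR413W, XII, 951156 to 953183) from 308 to 19.6 (ratio -3.79), the adenine deaminase gene AAH1 from 55.3 to 3.62 (ratio -3.17), the transporter gene AQR1 from 74.8 to 6.22 (ratio -3.10) and the glucose repressor gene MIG2 from 106 to 10.5 (ratio -3.03). YKL177W, a locus with no RefSeq entry, was at -3.11. By name it lies next to STE3, also known as YKL178C, and reads of the pair cannot be told apart.

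The response with Hsf1 removed was then set beside the response with Hsf1 in the nucleus, which shares no column with it. Without rapamycin, 740 kept genes (16.1%) were at least 2-fold higher at 39 °C and 820 (17.9%) lower. Of the 566 genes higher with rapamycin, 452 were also higher without it, which is 79.9% of the former set and 61.1% of the latter. Of the 588 lower genes 467 were lower in both, which is 79.4% and 57.0%. Across the 4585 kept genes the 2 log2 ratios had a Pearson r of 0.87 and a Spearman rho of 0.84, given as a description, since genes are not replicates and the columns share strain and method. Whether any gene differed between the responses was not tested, because there are no replicate values.

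**Figure D5:**
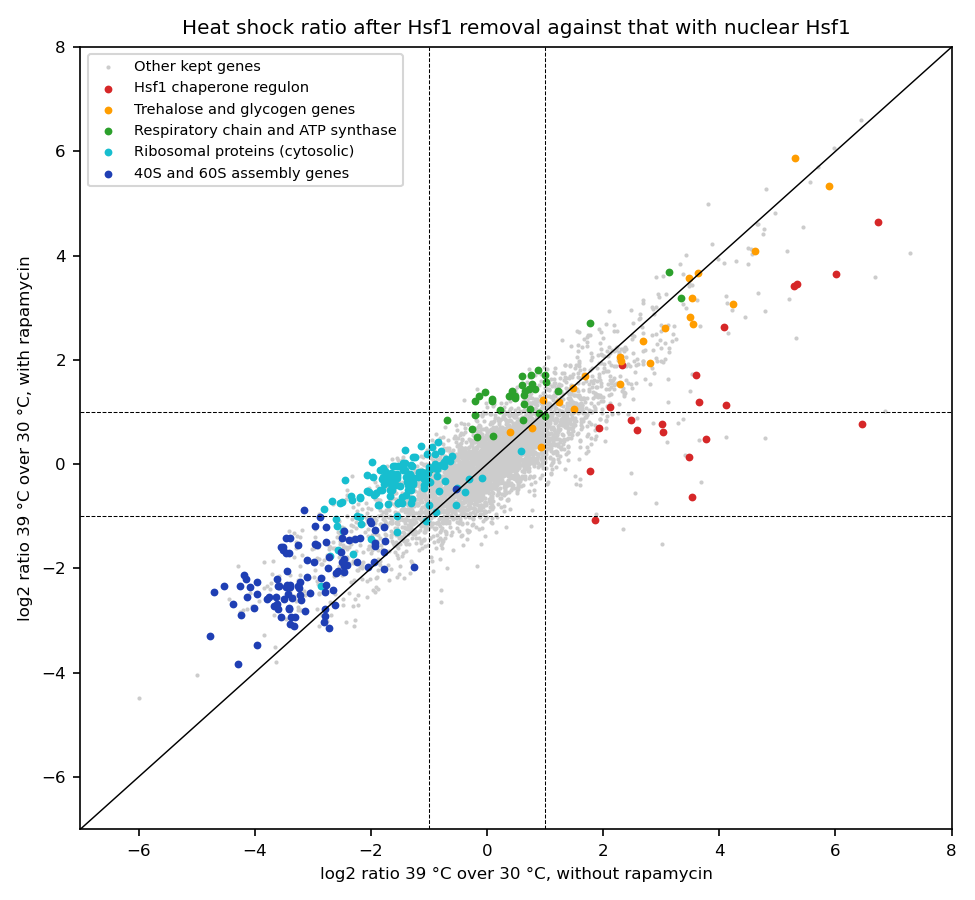
Log2 ratio of 39 °C over 30 °C without rapamycin (horizontal) and with rapamycin (vertical) for kept genes and 5 coloured gene groups, with the solid line at equality and dashed lines at 2-fold. The Hsf1 chaperone regulon lies below the line for all 21 genes, with medians of 3.53 and 0.85, while trehalose and glycogen genes lie on both sides of it, as TPS2 (3.63 and 3.67) and GDB1 (4.23 and 3.06) show.

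Among the 566 higher genes 374, or 66.1%, had ratios within 1.5-fold of each other in the 2 responses, close to the 69.1% among all kept genes. The 10 genes with ratios within 0.1 of each other and the highest level at 39 °C with rapamycin were CTT1, TPS2, FMP45, LSP1, RPS12, FAA1, HNT1, YGP1, HOR7 and BDH1. TPS2 had ratios of 3.67 with and 3.63 without rapamycin, the stress glycoprotein gene YGP1 2.48 and 2.49, the butanediol dehydrogenase gene BDH1 2.21 and 2.31, and the nucleotide hydrolase gene HNT1 2.17 and 2.19. LSP1 had 1.52 and 1.45, HOR7 1.84 and 1.89, and FAA1 1.35 and 1.43. RPS12 was the lower one of this set, at -1.09 and -1.06. Other stress genes had smaller ratios with rapamycin. They included TMA10 (3.59 against 6.67), HSP30 (2.41 against 5.31) and SPI1 (3.17 against 5.19) of the membrane and hydrophilin list. For trehalose and membrane stress genes the list medians were 2.58 and 2.45 with rapamycin and 3.15 and 2.58 without it.

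Genes with a far smaller ratio after Hsf1 removal were led by SSA4 (1.02 against 6.85), BTN2 (0.77 against 6.46) and ZPR1 (-1.52 against 3.02). They continued with SSA3 (0.50 against 4.78), FES1 (-0.63 against 3.53), YLR217W (-0.34 against 3.68), YAR1 (-0.74 against 2.91), LST8 (0.51 against 4.11), YGR210C (-1.25 against 2.34) and APJ1 (0.13 against 3.48). ZPR1 encodes a zinc finger protein that folds the elongation factor eEF1A, while the LST8 product belongs to both TOR complexes. YLR217W matched no RefSeq entry and lies next to CPR6, also known as YLR216C, by name. YAR1, also known as YPL239W, lies next to HSP82, also known as YPL240C. LST8, also known as YNL006W, lies next to SIS1, also known as YNL007C.

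On the opposite side were genes whose ratio was less negative after Hsf1 removal. NHP2 (-1.95 against -4.29), LCP5 (-0.87 against -3.15), NOP4 (-2.45 against -4.70), MAK16 (-2.33 against -4.53) and TRZ1 (-1.27 against -3.41) had the widest gaps. RPL37B (-0.31 against -2.44), BUD28 (-0.22 against -2.32), SSF1 (-1.41 against -3.46), UTP21 (-2.14 against -4.18) and RPS21A (0.03 against -1.98) followed, and the first of the RPS21A values is -0.072 with columns of equal totals. BUD28, also known as YLR062C, matched no RefSeq entry and by name lies next to RPL22A, also known as YLR061W. NHP2 had 90.0 and 21.2 normalized reads with rapamycin and 114 and 3.15 without it. Ribosomal protein genes shared this direction, since 63 of 79 large subunit genes and 46 of 56 small subunit genes were lower without rapamycin, against 7 and 5 with it. The medians of the 60S and 40S assembly lists were -3.29 and -2.97 without rapamycin, against -2.33 and -2.06 with it. The 39 °C column with rapamycin was the shallowest of the 4, and its part in these gaps was not tested. At 39 °C without rapamycin LCP5 (2.775), NOP4 (2.02), TRZ1 (1.765), SSF1 (1.385) and MAK16 (1.01) lay below the 2.851 added to each value. The size and order of their gaps thus depend on that constant and on few reads.

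Respiratory genes had larger ratios with rapamycin. The list of 37 had a median of 1.31 with and 0.61 without rapamycin, and 28 against 5 members were at least 2-fold higher. Of the 566 genes higher after Hsf1 removal, 40 (7.07%) were within 1.5-fold between temperatures without rapamycin, against 44.3% of all kept genes. Chosen after their values were seen, those with the widest gap among them were MDM36, MIM1, COX5A, COX8, QCR6, DIF1, ATP5, ATP17 and PET9. COX5A, a cytochrome oxidase subunit gene, went from 103 to 259 with rapamycin (ratio 1.31) and from 140.4 to 127 without it (ratio -0.14). QCR6, of the cytochrome bc1 complex, went from 112 to 298 (ratio 1.39) and from 149.7 to 146 (ratio -0.03). PET9, the main ADP/ATP carrier gene, went from 215 to 462 (ratio 1.097) and had 225.3 and 225.8 normalized reads without rapamycin.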

How the data were processed

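The authors deposited 1 average normalized read count, a signal value, per gene and condition, per the file headers. HTSeq and genome build sacCer3 are named per the submitters' processing notes. Not given in the sources used here were versions, aligner, annotation, strand setting, scaling and the handling of reads that fit several places. Columns were matched to conditions by their header abbreviations and used as deposited. Column totals were 369160 (30 °C with rapamycin), 397419 (39 °C with rapamycin), 377862 and 433510 (30 °C and 39 °C without rapamycin).

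From these values log2 ratios, list counts and medians over all measured members, overlaps and shares of totals were computed with Python 3.11.15, pandas 2.3.3, numpy 2.4.6 and scipy 1.17.1. Scripts were tested on simulated data. Low values (under 6) fell on sums of 2 steps within 0.0055 in 99.4% to 100% of cases, against 5.03% to 25.6% of evenly spaced values. The steps were chosen to make that gap as wide as possible, and sums of another number of steps were not tried. Counting errors follow from these steps, with each lowest value taken as 1 read per library. No value was 0, and intervals and errors cover counting only.

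The 41 lists share some members. Genes, lists and the rule for named genes (20 highest, 20 lowest, 4 at each end of a list, 10 widest and 10 smallest gaps between responses, the last within 0.1) were chosen with earlier results of these data known. Not every gene that the rule names is printed, and some results are not reported here. Gene names matched RefSeq assembly R64 for 5351 of 5732 loci. Promoter motifs were planned and not analysed here.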

Additional observations from a re-analysis of the deposited data

Results flagged for a closer look

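YDJ1, YGR210C and ZPR1 are the only 3 of the 4585 kept genes that were at least 2-fold lower at 39 °C with rapamycin and at least 2-fold higher at 39 °C without it, and no kept gene showed the reverse. The difference was not tested, since each condition has 1 averaged value. The log2 ratio with rapamycin was -1.07 for YDJ1, -1.25 for YGR210C and -1.52 for ZPR1, with counting standard errors of 0.21, 0.23 and 0.30. Without rapamycin the ratios were 1.86, 2.34 and 3.02. ZPR1 (YGR211W, VII, 915241 to 916701) and YGR210C (VII, 913503 to 914738) are neighbours that, by the W and C of their names, point away from each other. The YDJ1 ratio was -0.91, within 2-fold, when 0.5 of the median was added to each value.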

How the results depend on the processing

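No paired analysis was possible because the deposited columns are means without replicate numbers. Leaving out replicates could not be run for the same reason, and the motif alternatives were not run. The counts of higher genes lay between 391 and 643 and of lower genes between 361 and 673 over the settings tried. The 361, found when 0.5 of the median was added to each value, was the one count of these that moved by over 1.5 times. The Hsf1 regulon median was 1.097, past 2-fold, when 0.01 of the median was added. The median of the genes shared with Msn2/4 was within 2-fold at 0.79 when 0.5 of the median was added and at 0.93 with equal totals. Equal totals shifted the median of all kept genes with rapamycin to -0.10. That scaling turned the sign of the medians for mitochondrial folding (-0.012), Gcn4 (-0.095), nitrogen (-0.061) and mitochondrial ribosomal protein genes (-0.028). It also turned ATG21 (-0.049), GUS1 (-0.027), PDR3 (-0.080), RPB2 (-0.071), RPN9 (-0.096), RPS21A (-0.072), SSZ1 (-0.091) and TRR1 (-0.060). Rescaling shifts every ratio by its construction, and the cause of the other changes was not tested. Of 381 named genes 8 changed sign under any setting. Leaving out loci that match no RefSeq entry or overlap another gene, chosen after seeing the data, gave 531 higher and 554 lower genes.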

Other observations

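Members of isozyme pairs often differed in their heat shock ratio after Hsf1 removal. A list of 22 pairs, written from general knowledge after values had been seen, names first the gene known or thought to serve stress or slow growth. In 16 of 22 pairs the first gene had a log2 ratio at least 1 above that of the second, and 19 first genes but 4 second genes were at least 2-fold higher. As the pairs were chosen with the values known, this is a description.

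Hexokinase genes stood in opposite order at the 2 temperatures, as HXK1 went from 38.8 to 703 normalized reads while HXK2 had 310 and 282. Catalase genes stood at similar levels at 30 °C, 16.4 for CTT1 and 18.1 for the peroxisomal CTA1, and at 994 and 19.97 at 39 °C. The phosphoglucomutase genes PGM2 and PGM1 went from 14.6 and 45.5 to 1013 and 71.7. The Ras genes had ratios of opposite sign, with RAS2 from 81.8 to 310 (ratio 1.88) and RAS1 from 46.2 to 7.19 (ratio -2.29). The glycerol phosphate dehydrogenase gene GPD1 had a ratio of 2.67 and GPD2 of -0.22. The minor glycolytic copies stayed far below the major ones, as TDH1 reached 188 normalized reads beside 5468 for TDH3.

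Gene length was also set beside the ratio. The Spearman rho between annotated length and the log2 ratio was -0.09 with rapamycin and 0.11 without it, across the 4418 kept genes with a RefSeq length, as a description over genes.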
